A study of Cucumis melo with 18 samples.

Results

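The transcript levels of 6 melon genes of chlorophyll synthesis were followed through fruit development in 2 inbred lines. The 6 genes were taken by identifier from the 22394 genes with counts. They belong to the magnesium branch of tetrapyrrole synthesis, of which the study lists 7 further genes, and were chosen with earlier results of these data known. They are ChlH (MELO3C023131.2), CRD1 (MELO3C026802.2), 2 genes of POR (MELO3C013592.2 and MELO3C016714.2) and 2 genes of CHLP (MELO3C014712.2 and MELO3C017176.2). Symbols are those the study gives to each identifier. Among the 28628 melon genes that RefSeq lists, 0 carry these identifiers, and positions, gene lengths and sequences are therefore not given here.

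The lines are “B-14”, whose flesh is orange at maturity, and “B-6”, whose flesh is white at maturity. Fruits were sampled at 10, 30 and 45 days after pollination (DAP), which gave the groups “1_14”, “3_14” and “4_14” in “B-14” and “1_6”, “3_6” and “4_6” in “B-6”. Each group had 3 libraries of biological replicates, 18 in all. Plants grew in a greenhouse with 1 pollinated fruit each and flesh was taken from 3 plants, but the sources do not state whether a library held 1 fruit or a pool. No transgene or treatment is given for either line, and all flowers were pollinated by hand. Flesh of the fruit was the tissue according to the study, but the deposited labels call it blade. This was not checked against tissue markers, because the counts carry identifiers without gene names. Each line is 1 inbred genotype, so a difference between the lines is a difference between these genotypes at a stage.

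Chlorophyll and heme share their precursors up to protoporphyrin IX, where insertion of magnesium opens the branch to chlorophyll and insertion of iron the branch to heme. Magnesium chelatase makes the insertion, a methyltransferase and a cyclase then build protochlorophyllide, and the light-dependent enzyme POR reduces it to chlorophyllide. Geranylgeranyl reductase supplies the phytyl tail that chlorophyll synthase attaches, and its substrate, geranylgeranyl diphosphate, is also the starting point of carotenoids. Young melon flesh is commonly greenish, and its colour at maturity varies among cultivars.

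Total counts per library lay between 20651703 and 22675606, so all libraries had similar depth. Levels are CPM, counts put on a common depth over the 18 libraries by TMM factors and not corrected for gene length, so levels are compared between groups and not between genes. Each of the 6 genes passed the filter on low counts in every comparison. Their lowest count in a library was 105 for ChlH, 651 for CRD1, 36 and 3136 for POR (MELO3C013592.2 and MELO3C016714.2), and 17 and 416 for CHLP (MELO3C014712.2 and MELO3C017176.2). MELO3C014712.2 thus rested on the fewest counts. Reads could be shared between the POR genes or between the CHLP genes if their sequences are alike, and how the counting treated such reads is not given in the sources used here.

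All 6 genes had their highest mean level in “4_6”, mature white-fleshed fruit, whereas 17.1% of the 17437 genes kept over all libraries did. The “4_6” libraries overlapped those of the next highest group for CRD1, POR (MELO3C016714.2) and both CHLP genes. For CHLP (MELO3C014712.2) the rank rested on replicate 3 of “4_6” at 11.0 CPM, beside 5.13 and 5.37 CPM and a mean of 5.89 CPM in “4_14”. In “B-14” the 6 genes took separate courses. CRD1, both POR genes and CHLP (MELO3C017176.2) had their highest mean at 30 DAP, while ChlH and CHLP (MELO3C014712.2) had it at 45 DAP. The span between the highest and the lowest group mean was 113-fold for ChlH and 13.9-fold for CRD1. It was 7.18-fold and 5.37-fold for POR (MELO3C013592.2 and MELO3C016714.2) and 6.22-fold and 5.36-fold for CHLP (MELO3C014712.2 and MELO3C017176.2). In these tissue samples, fewer cells that express a gene and less RNA per cell cannot be told apart.

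**Figure D1:**
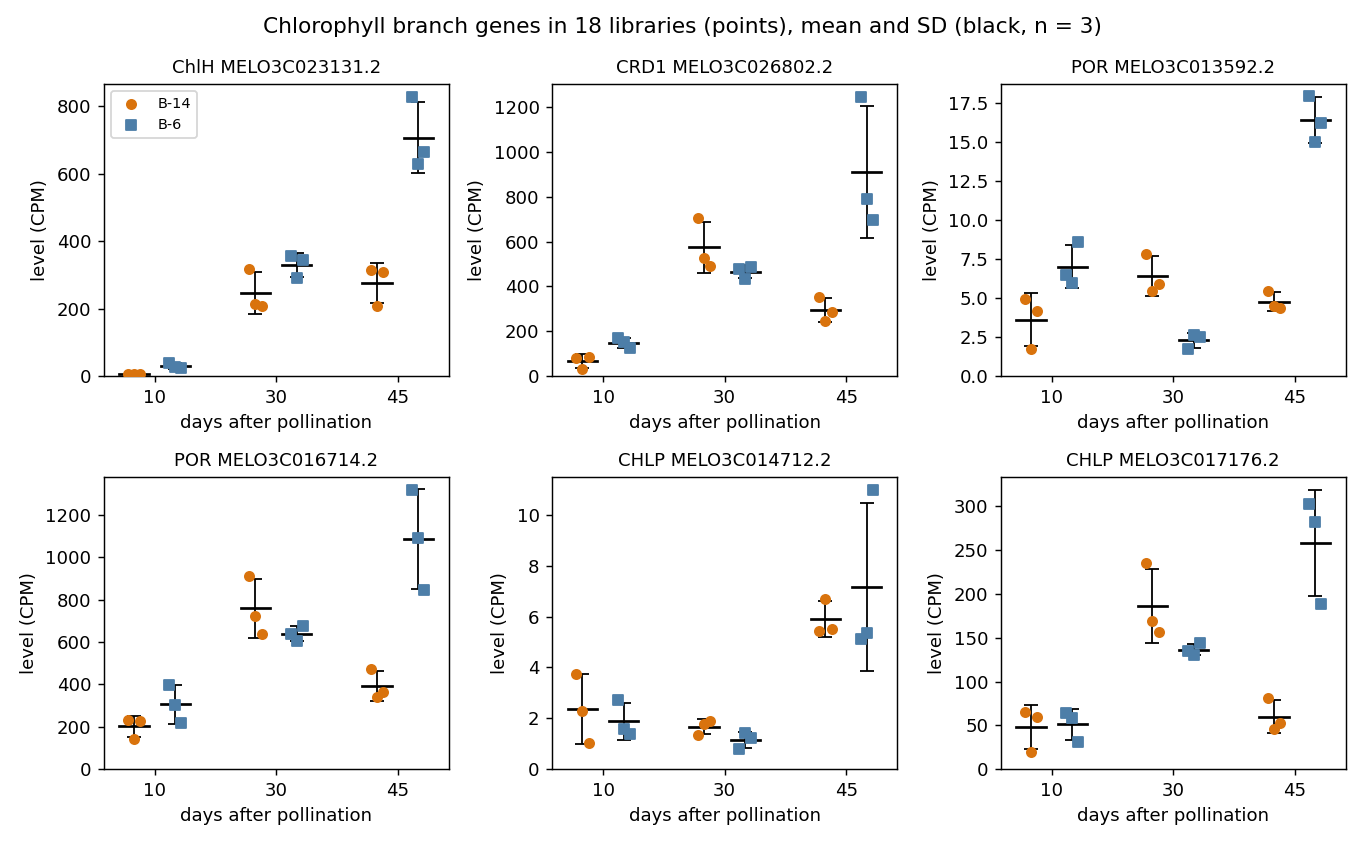
Level in CPM (vertical axis, linear, from 0) of the 6 genes at 10, 30 and 45 days after pollination (horizontal axis), with 1 point per library and the mean and SD of each group of 3 in black, “B-14” in orange to the left of “B-6” in blue. In each panel the highest mean is that of “B-6” at 45 DAP, with 707 CPM for ChlH and 16.4 CPM for POR (MELO3C013592.2).

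Pairs of groups were compared by edgeR's quasi-likelihood test. The study's own threshold was used to call a gene up- or downregulated, namely a 2-fold change in either direction together with an unadjusted p of 0.05 or less. Benjamini-Hochberg adjusted p-values over all genes tested stand beside the fold changes, and SE is the standard error of a log2 fold change. Comparisons of 30 and of 45 DAP with 10 DAP in a line share the 10 DAP libraries. The 3 libraries per group are the only measure of spread.

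ChlH encodes the large subunit of magnesium chelatase that binds protoporphyrin IX. In “B-14” its level was 7.0, 4.84 and 6.94 CPM at 10 DAP, 317, 214 and 208 CPM at 30 DAP and 314, 209 and 307 CPM at 45 DAP. In “B-6” it was 39.1, 26.5 and 22.3 CPM at 10 DAP, 356, 289.8 and 344 CPM at 30 DAP and 826, 628 and 666 CPM at 45 DAP. All libraries of 10 DAP lay far below all later ones, and the 45 DAP libraries of “B-6” lay above all others. ChlH was upregulated in “3_14” versus “1_14” by 5.32 on the log2 scale (SE 0.26, adjusted p = 7.9e-06), a 39.8-fold change. It was upregulated by 5.47 (SE 0.24, adjusted p = 3.8e-06) in “4_14” versus “1_14”. From 30 to 45 DAP the “B-14” libraries overlapped, with a log2 fold change of 0.15 (SE 0.22, adjusted p = 0.59). In “B-6”, ChlH was upregulated by 3.49 (SE 0.22, adjusted p = 4.1e-06) in “3_6” versus “1_6” and by 4.56 (SE 0.28, adjusted p = 5.3e-06) in “4_6” versus “1_6”. It was also upregulated in “4_6” versus “3_6” by 1.10 (SE 0.15, adjusted p = 0.00084). That last value was 0.98, short of a 2-fold change, without replicate 1 of “4_6”.

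Between the lines, ChlH was lower in “B-14” at 10 DAP, where its mean was 6.26 ± 1.23 CPM in “1_14” and 29.3 ± 8.73 CPM in “1_6” (SD, n = 3 each). This 4.56-fold difference had a log2 value of −2.19 (SE 0.25, adjusted p = 0.00028). At 30 DAP the means were 246 ± 60.9 CPM in “3_14” and 330.1 ± 35.3 CPM in “3_6”, the libraries overlapped, and the log2 value was −0.41 (SE 0.18, adjusted p = 0.15). At 45 DAP the means were 277 ± 58.6 CPM in “4_14” and 707 ± 105 CPM in “4_6”, without overlap, and ChlH was 2.55-fold lower in “4_14” (log2 −1.35, SE 0.20, adjusted p = 0.0072). In the order of the 6 group means, “3_6”, “4_14” and “3_14” followed “4_6” and overlapped from neighbour to neighbour, and “1_6” and “1_14” came last, apart from each other.

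CRD1 encodes the cyclase that closes the fifth ring of magnesium protoporphyrin monomethyl ester. Its level in “B-14” was 82.3, 30.0 and 84.1 CPM at 10 DAP, 703, 529 and 491 CPM at 30 DAP and 352, 244 and 285 CPM at 45 DAP. The “B-6” libraries had 170.0, 151 and 126 CPM at 10 DAP, 477, 433 and 488 CPM at 30 DAP and 1244, 791 and 695 CPM at 45 DAP. The “B-14” libraries were thus highest at 30 DAP, and those of “B-6” at 45 DAP, with no overlap between stages in either line. CRD1 was upregulated in “3_14” versus “1_14” by 3.15 (SE 0.41, adjusted p = 0.00047) and in “3_6” versus “1_6” by 1.64 (SE 0.13, adjusted p = 1.5e-05). It was upregulated by 2.17 (SE 0.38, adjusted p = 0.0017) in “4_14” versus “1_14” and by 2.58 (SE 0.27, adjusted p = 7.1e-05) in “4_6” versus “1_6”. The changes from 30 to 45 DAP ran in opposite directions and both stayed just short of 2-fold. The log2 value was −0.98 (SE 0.19, adjusted p = 0.0054) in “4_14” versus “3_14” and 0.97 (SE 0.22, adjusted p = 0.0082) in “4_6” versus “3_6”.

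CRD1 averaged 65.5 ± 30.7 CPM in “1_14” and 149 ± 22.0 CPM in “1_6” (SD, n = 3 each), a log2 value of −1.15 (SE 0.35, adjusted p = 0.026). Without replicate 2 of “1_14”, the library at 30.0 CPM, this value was −0.80 and no longer past the threshold. At 30 DAP the averages were 574 ± 113 CPM in “3_14” and 466 ± 29.0 CPM in “3_6”, with a log2 value of 0.31 (SE 0.14, adjusted p = 0.16), although the libraries did not overlap. At 45 DAP they were 294 ± 54.7 CPM in “4_14” and 910.1 ± 293 CPM in “4_6”, and CRD1 was 3.09-fold lower in “4_14” (log2 −1.63, SE 0.26, adjusted p = 0.0088). Among neighbours in the order of group means, overlap was found only between “4_6” and “3_14”.

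POR encodes protochlorophyllide oxidoreductase, which in flowering plants acts in light. MELO3C016714.2 took almost all counts of the POR pair. Its level in “B-14” was 232, 145 and 229 CPM at 10 DAP, 914, 726 and 639 CPM at 30 DAP and 473, 339 and 365 CPM at 45 DAP. The “B-6” libraries had 399, 303 and 216 CPM at 10 DAP, 637, 605 and 678 CPM at 30 DAP and 1317, 1093 and 844 CPM at 45 DAP. As for CRD1, the “B-14” libraries were highest at 30 DAP and the “B-6” libraries at 45 DAP, without overlap between stages. The gene was upregulated in “3_14” versus “1_14” by 1.93 (SE 0.23, adjusted p = 0.00033), in “3_6” versus “1_6” by 1.06 (SE 0.21, adjusted p = 0.0022) and in “4_6” versus “1_6” by 1.79 (SE 0.28, adjusted p = 0.00067). The “3_6” value was 0.86, below the threshold, without replicate 3 of “1_6”. Changes short of 2-fold were 0.96 (SE 0.22, adjusted p = 0.0054) in “4_14” versus “1_14”, −0.97 (SE 0.18, adjusted p = 0.0050) in “4_14” versus “3_14” and 0.76 (SE 0.18, adjusted p = 0.0088) in “4_6” versus “3_6”.

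Between the lines, POR (MELO3C016714.2) overlapped at 10 DAP (log2 −0.56, SE 0.26, adjusted p = 0.11) and at 30 DAP (0.26, SE 0.14, adjusted p = 0.22). At 45 DAP it averaged 392 ± 71.3 CPM in “4_14” and 1085 ± 236 CPM in “4_6” (SD, n = 3 each) and was 2.76-fold lower in “4_14” (log2 −1.46, SE 0.21, adjusted p = 0.0070). Of the neighbours in its order of means, only “3_6” and “4_14” were apart.

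POR (MELO3C013592.2) was low and had another course. Its level in “B-14” was 4.94, 1.71 and 4.17 CPM at 10 DAP, 7.84, 5.46 and 5.90 CPM at 30 DAP and 5.45, 4.50 and 4.37 CPM at 45 DAP. In “B-6” the libraries had 6.47, 5.99 and 8.61 CPM at 10 DAP, 1.73, 2.62 and 2.51 CPM at 30 DAP and 17.9, 15.0 and 16.3 CPM at 45 DAP. The “B-6” libraries dipped at 30 DAP and were highest at 45 DAP, with no overlap between stages. The gene was downregulated in “3_6” versus “1_6” by 1.62 on the log2 scale (SE 0.24, adjusted p = 0.00039). It was upregulated in “4_6” versus “3_6” by 2.84 (SE 0.19, adjusted p = 4.6e-05), a 7.17-fold change, and in “4_6” versus “1_6” by 1.20 (SE 0.19, adjusted p = 0.00064). In “B-14” no stage comparison passed the threshold, and the log2 values were 0.85 (adjusted p = 0.088) in “3_14” versus “1_14”, 0.41 (adjusted p = 0.36) in “4_14” versus “1_14” and −0.44 (adjusted p = 0.098) in “4_14” versus “3_14”.

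The difference between the lines in POR (MELO3C013592.2) changed direction with the stage. At 10 DAP it averaged 3.60 ± 1.69 CPM in “1_14” and 7.02 ± 1.4 CPM in “1_6”, with a log2 value of −0.93 (SE 0.37, adjusted p = 0.073), short of 2-fold. At 30 DAP it was 2.82-fold higher in “3_14”, with 6.40 ± 1.27 CPM in “3_14” and 2.29 ± 0.488 CPM in “3_6” (log2 1.49, SE 0.23, adjusted p = 0.0069). At 45 DAP it was 3.42-fold lower in “4_14”, with 4.77 ± 0.589 CPM in “4_14” and 16.4 ± 1.46 CPM in “4_6” (log2 −1.78, SE 0.15, adjusted p = 0.0011). At each of the stages the libraries of the lines did not overlap.

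CHLP encodes geranylgeranyl reductase, which provides the phytyl group for chlorophyll and for tocopherols. MELO3C017176.2 was the more counted gene of the CHLP pair. Its level in “B-14” was 65.7, 19.2 and 59.4 CPM at 10 DAP, 235, 169 and 156 CPM at 30 DAP and 81.0, 45.5 and 53.1 CPM at 45 DAP. In “B-6” it was 64.5, 58.0 and 30.6 CPM at 10 DAP, 135, 131 and 144 CPM at 30 DAP and 303, 282 and 189 CPM at 45 DAP. In “B-14” the 30 DAP libraries stood above both other stages, which overlapped, and in “B-6” the stages followed each other without overlap. The gene was upregulated in “3_14” versus “1_14” by 1.98 (SE 0.44, adjusted p = 0.0060) and downregulated in “4_14” versus “3_14” by 1.65 (SE 0.26, adjusted p = 0.0023). Its log2 value in “4_14” versus “1_14” was 0.32 (SE 0.44, adjusted p = 0.53). In “B-6” it was upregulated by 1.41 (SE 0.25, adjusted p = 0.0011) in “3_6” versus “1_6” and by 2.30 (SE 0.31, adjusted p = 0.00027) in “4_6” versus “1_6”, with 0.92 (SE 0.18, adjusted p = 0.0037), short of 2-fold, in “4_6” versus “3_6”.

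Between the lines, CHLP (MELO3C017176.2) had a log2 value of −0.05 (SE 0.44, adjusted p = 0.93) at 10 DAP and 0.46 (SE 0.15, adjusted p = 0.079) at 30 DAP. At 45 DAP it averaged 59.9 ± 18.7 CPM in “4_14” and 258 ± 60.7 CPM in “4_6” (SD, n = 3 each). This was 4.29-fold lower in “4_14” (log2 −2.10, SE 0.27, adjusted p = 0.0044), the largest line difference among the 6 genes at 45 DAP.

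CHLP (MELO3C014712.2) was the lowest of the 6 in counts and the only one of them that was upregulated between 30 and 45 DAP in “B-14”. Its level in “B-14” was 3.75, 2.31 and 1.02 CPM at 10 DAP, 1.33, 1.78 and 1.91 CPM at 30 DAP and 5.45, 6.71 and 5.52 CPM at 45 DAP. In “B-6” the libraries had 2.70, 1.56 and 1.38 CPM at 10 DAP, 0.815, 1.43 and 1.21 CPM at 30 DAP and 5.13, 5.37 and 11 CPM at 45 DAP. In both lines the 45 DAP libraries lay above all earlier ones, which overlapped. The gene was upregulated by 1.80 (SE 0.20, adjusted p = 0.00071) in “4_14” versus “3_14” and by 2.63 (SE 0.39, adjusted p = 0.0011) in “4_6” versus “3_6”. Against 10 DAP it was upregulated by 1.32 (SE 0.43, adjusted p = 0.026) in “4_14” and by 1.89 (SE 0.41, adjusted p = 0.0035) in “4_6”. The “4_14” value against 10 DAP was 0.96, below the threshold, without replicate 3 of “1_14”. From 10 to 30 DAP the log2 values were −0.48 (adjusted p = 0.39) in “B-14” and −0.72 (adjusted p = 0.11) in “B-6”. No line difference passed the threshold, with log2 values of 0.36, 0.55 and −0.28 at 10, 30 and 45 DAP (adjusted p = 0.58, 0.22 and 0.58).

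Counted over the 6 genes, the comparison of stages in “B-14” gave 4 upregulated genes in “3_14” versus “1_14”, where 19% of all genes tested were upregulated. In “4_14” versus “1_14”, 3 of the 6 were upregulated, against 19.7% of all genes. In “4_14” versus “3_14”, 1 of 6 was upregulated and 1 of 6 downregulated, against 8.1% and 11.9% of all genes. That total of 2 was 4 without replicate 3 of “3_14” or without replicate 1 of “4_14”, since CRD1 and POR (MELO3C016714.2) then passed 2-fold. The median log2 fold change of the 6 was 1.95, 1.14 and −0.70 in these 3 comparisons, while that of all genes tested was within 0.02 of 0.

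In “B-6”, 4 of the 6 genes were upregulated and 1 was downregulated in “3_6” versus “1_6”, against 17.6% and 25.1% of all genes. All 6 were upregulated in “4_6” versus “1_6”, where 19.7% of all genes were. The study had listed all 6 as higher in “4_6” there, so this count is not independent evidence of a direction. In “4_6” versus “3_6”, 3 of 6 were upregulated, against 12.4% of all genes. This count was 5 without replicate 3 of “4_6” and 2 without replicate 1 of “4_6”. Median log2 fold changes of the 6 were 1.24, 2.10 and 1.03. Scaling by library size alone shifted the median of all genes by 0.15 in “3_6” and 0.18 in “4_6” versus “1_6”.

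The comparison of lines addresses how “B-14” and “B-6” differ at a stage. At 10 DAP, 2 of the 6 genes, ChlH and CRD1, were downregulated in “1_14” versus “1_6”, against 14.4% of all genes, and 1 was without replicate 2 of “1_14”. At 30 DAP, 1 of the 6, POR (MELO3C013592.2), was upregulated in “3_14” versus “3_6”, against 3.52% of all genes. At 45 DAP, 5 of the 6 were downregulated in “4_14” versus “4_6”, against 5.43% of all genes, and this count stayed at 5 under each alternative run, leaving out any 1 library included. For these 5 the libraries of “4_14” and “4_6” did not overlap. The study lists the same 5 as lower in “4_14” in these samples, so their count is not independent evidence of a direction. The median log2 fold change of the 6 was −0.74, 0.39 and −1.55 at the 3 stages. Transcript levels were not set against chlorophyll content here, for which the study reports similar values in both lines throughout.

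**Figure D2:**
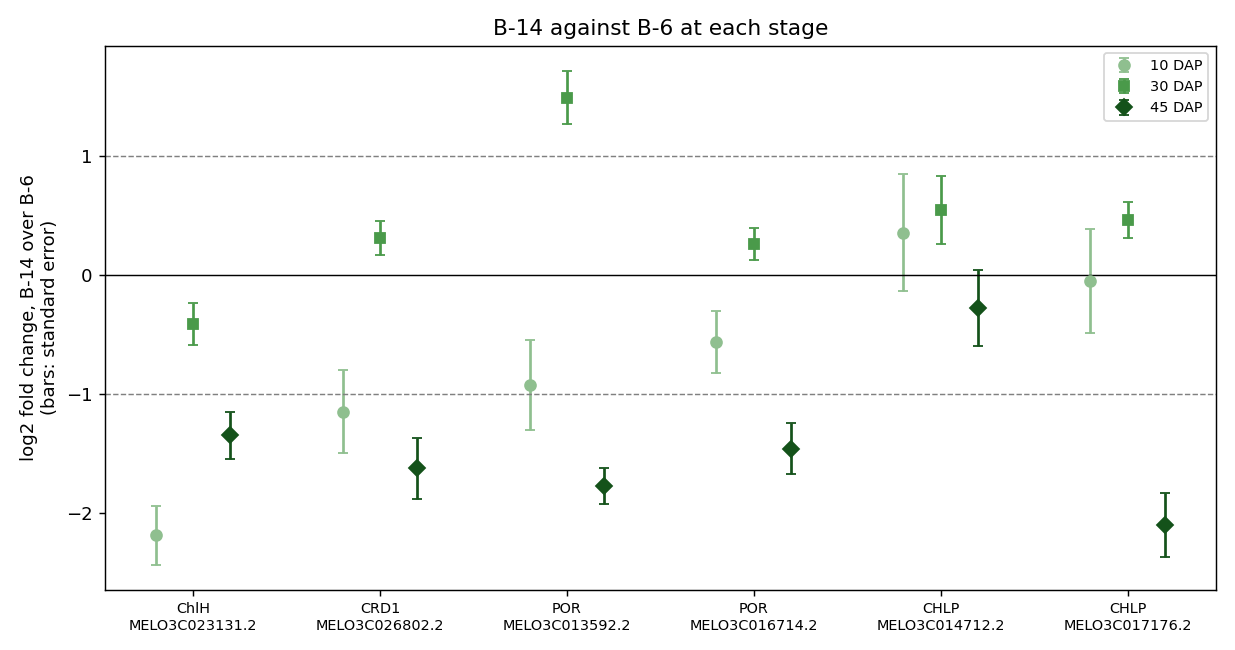
Log2 fold change of “B-14” over “B-6” (vertical axis, bars show the standard error) for each of the 6 genes (horizontal axis) at 10, 30 and 45 DAP, with dashed lines at a 2-fold change. At 45 DAP 5 genes lie between −1.35 and −2.10, whereas at 30 DAP only POR (MELO3C013592.2) lies beyond a dashed line, at 1.49.

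Whether the lines differed in their change between stages was tested by the interaction of line and stage over 12 libraries, and called where the adjusted p was 0.05 or less and the log2 value was 1 or more in size. A positive value means that the log2 change, with its sign, was higher in “B-14”, and a negative value that it was lower. From 30 to 45 DAP, 4 of the 6 genes had a lower change in “B-14”, against 4.38% of all genes. The values were −1.92 (SE 0.31, adjusted p = 0.0031) for CRD1, −3.25 (SE 0.27, adjusted p = 0.00026) for POR (MELO3C013592.2), −1.70 (SE 0.27, adjusted p = 0.0025) for POR (MELO3C016714.2) and −2.54 (SE 0.33, adjusted p = 0.0012) for CHLP (MELO3C017176.2). These 4 had a higher mean in “4_6” than in “3_6” and a lower mean in “4_14” than in “3_14”, a pattern shared by 12% of the genes kept. ChlH had an interaction of −0.91 (SE 0.28, adjusted p = 0.048), short of the size limit, and CHLP (MELO3C014712.2) had −0.80 (SE 0.45, adjusted p = 0.24). Without replicate 3 of “3_14”, ChlH passed at −1.03.

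**Figure D3:**
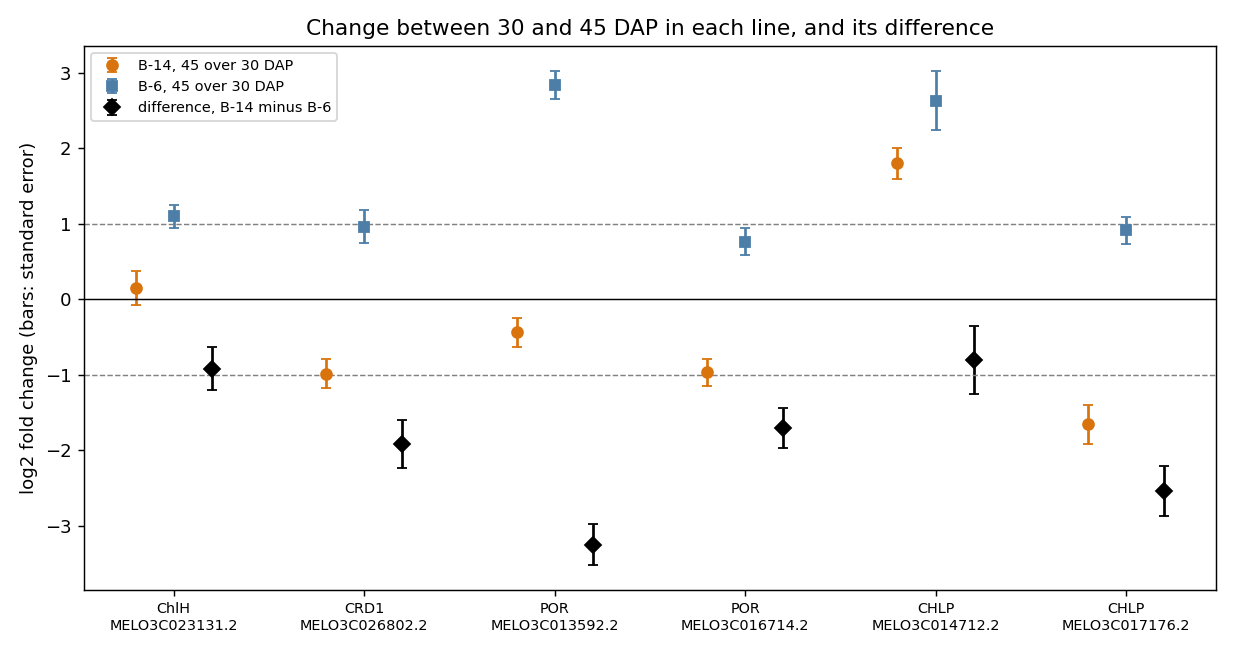
Log2 fold change of 45 over 30 DAP (vertical axis, bars show the standard error) in “B-14” and in “B-6”, and the difference between the lines, for each of the 6 genes (horizontal axis), with dashed lines at a 2-fold change. CRD1 has −0.98 in “B-14” and 0.97 in “B-6”, while CHLP (MELO3C014712.2) is above the dashed line in both lines, at 1.80 in “B-14” and 2.63 in “B-6”.

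From 10 to 30 DAP, 3 of the 6 genes had a higher change in “B-14”, against 11.6% of all genes. They were ChlH with 1.79 (SE 0.33, adjusted p = 0.0014), CRD1 with 1.48 (SE 0.43, adjusted p = 0.019) and POR (MELO3C013592.2) with 2.43 (SE 0.48, adjusted p = 0.0022). For this POR gene the log2 change was −1.62 in “B-6” and 0.85, not called, in “B-14”. ChlH and CRD1 were the genes called lower in “1_14” than in “1_6”. POR (MELO3C013592.2) was lower there too, at −0.93, short of 2-fold. These interactions and the line comparison at 10 DAP share the 10 DAP libraries. POR (MELO3C016714.2) had an interaction of 0.83, not called, and passed at 1.04 without replicate 3 of “1_6”. From 10 to 45 DAP, only CHLP (MELO3C017176.2) passed, with −2.05 (SE 0.59, adjusted p = 0.018), which makes 1 of 6 with a lower change in “B-14”, against 12.1% of all genes. Without replicate 2 of “1_14”, both POR genes also passed with a lower change in “B-14”, and without replicate 1 of “1_6” POR (MELO3C016714.2) did. Without replicate 3 of “1_6” or replicate 2 of “4_14”, ChlH passed with a larger change in “B-14”, at 1.00 and 1.06.

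The study lists 7 further genes of the magnesium branch. They are CHLI and CHLD, the other chelatase subunits, CHLH1, a second gene of the large subunit, the methyltransferase CHLM, the divinyl reductase DVR, chlorophyll synthase CHLG and CAO, which makes chlorophyll b. The lists used here were selected by the study on these samples and are not independent evidence of a direction. In “4_14” versus “4_6”, 2 of the 6 tested, CHLI (log2 −1.30, SE 0.25, adjusted p = 0.016) and DVR (−1.28, SE 0.25, adjusted p = 0.017), were downregulated. The others had −0.90 for CHLD, −0.68 for CHLM, −0.19 for CHLG and −0.77 for CAO (adjusted p = 0.068, 0.083, 0.43 and 0.042), with a list median of −0.83. All 12 genes of the branch tested at 45 DAP thus had a value below 0, and 7 of them were called. Of all genes tested, 5.43% were downregulated in this comparison, and their median log2 fold change was −0.006.

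**Figure D4:**
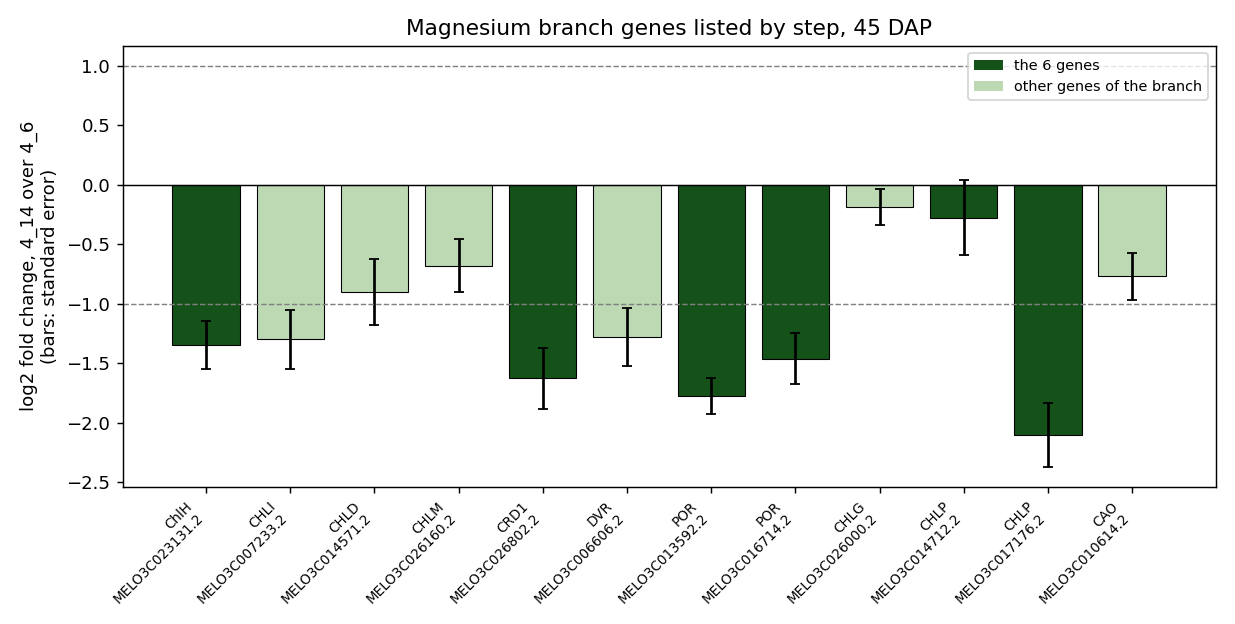
Log2 fold change of “4_14” over “4_6” (vertical axis, bars show the standard error) for 12 genes of the magnesium branch listed by step (horizontal axis), the 6 genes described here in dark green and the other tested genes in light green, with dashed lines at a 2-fold change. All bars point down, from −0.19 for CHLG to −2.10 for CHLP (MELO3C017176.2).

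CHLI averaged 45.2 ± 16.4, 158 ± 40.9 and 90.8 ± 19.3 CPM at 10, 30 and 45 DAP in “B-14” and 63.0 ± 15.9, 101 ± 7.53 and 224 ± 67.0 CPM in “B-6” (SD, n = 3 each). Like CRD1 and POR (MELO3C016714.2), it was highest at 30 DAP in “B-14” and at 45 DAP in “B-6”. It was upregulated in “3_14” versus “1_14” (1.82, adjusted p = 0.0016), “4_14” versus “1_14” (1.01, adjusted p = 0.013), “4_6” versus “1_6” (1.80, adjusted p = 0.00050) and “4_6” versus “3_6” (1.16, adjusted p = 0.0028). The “4_14” value was 0.98, just short of 2-fold, by DESeq2. Its change from 30 to 45 DAP was lower in “B-14” by an interaction of −1.93 (SE 0.33, adjusted p = 0.0037), and that of DVR by −1.45 (SE 0.30, adjusted p = 0.0091).

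CAO was upregulated against 10 DAP in each line and later stage, by 2.28 in “3_14”, 1.73 in “4_14”, 2.26 in “3_6” and 2.40 in “4_6”, with adjusted p between 2.6e-06 and 0.0011. CHLG was upregulated in “3_14” versus “1_14” (1.01, adjusted p = 0.00056), with 0.97, just short of 2-fold, by DESeq2. DVR was downregulated in “4_14” versus “1_14” (−1.53, adjusted p = 0.00082) and versus “3_14” (−1.43, adjusted p = 0.00097), and CHLD likewise (−1.31, adjusted p = 0.00020, and −1.03, adjusted p = 0.0012). CHLM was downregulated in “3_6” versus “1_6” (−1.48, adjusted p = 2.2e-05) and in “1_14” versus “1_6” (−1.72, adjusted p = 0.00062). At 30 DAP, 0 of 6 tested genes of this list were called between the lines by edgeR and 0 by DESeq2, while 2 had an unadjusted p of 0.05 or less with a smaller fold change.

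CHLH1 (MELO3C002961.2) ran against ChlH. It had 9 to 12 counts per library in “1_14” and 14 to 40 in “1_6”, and 0 counts in every library of 30 and 45 DAP. With 3 counts per library as the floor, it was at least 3.61-fold lower in “3_14” and 3.56-fold lower in “4_14” than in “1_14”, and at least 8.26-fold lower in “3_6” and 8.49-fold lower in “4_6” than in “1_6”. It was downregulated in “1_14” versus “1_6” (−1.23, SE 0.47), with an adjusted p of 0.060.

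In the steps before and beside the branch, calls between the lines at 45 DAP went in both directions only among the breakdown genes. Of all genes tested in “4_14” versus “4_6”, 5.92% were upregulated and 5.43% downregulated. There, 2 of 13 genes of the early steps from glutamate to protoporphyrin were downregulated, HEMA1, glutamyl-tRNA reductase (−1.41, adjusted p = 0.0038), and HEMC, porphobilinogen deaminase (−1.39, adjusted p = 0.0043). Their list had a median of −0.33. Of 7 heme branch genes, 0 were called by edgeR and 0 by DESeq2, 2 had an unadjusted p of 0.05 or less with a smaller fold change, and the median was −0.09. Of 9 breakdown genes, 2 were upregulated and 2 downregulated, with a median of 0.03. GGPS, which makes geranylgeranyl diphosphate, was downregulated (−1.01, adjusted p = 0.0044). PSY, the phytoene synthase of carotenoids, was higher in “4_14”, with a log2 value of 0.69, short of 2-fold. The median of GGPS and PSY, −0.16, thus lies between 2 values of opposite sign. The 6 genes had a median of −1.55 in the same comparison. A difference between lists was not tested.

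Over time, calls in the early list went both ways. In “4_6” versus “1_6”, 19.7% of all genes were upregulated and 28.4% downregulated. All 6 genes were upregulated there. Of the 7 other magnesium branch genes, 2 were upregulated and 1 was downregulated, with a median log2 fold change of 0.16. Of 13 early genes, 2 were upregulated and 3 downregulated, 1 of 7 heme branch genes was downregulated, and 5 of 8 tested breakdown genes were upregulated. Among the breakdown genes, NYC1, a chlorophyll b reductase, was upregulated by 3.07 (adjusted p = 5.3e-05) and HCAR, which acts after it, by 2.22 (adjusted p = 0.00029). In “4_14” versus “1_14”, 19.7% of all genes were upregulated and 25.9% downregulated. There, 2 of 6 tested other magnesium branch genes were upregulated and 2 downregulated. Of 13 early genes, 1 was upregulated and 3 downregulated, and 3 of 9 breakdown genes were upregulated and 1 downregulated, with 4.51 (adjusted p = 1.5e-06) for NYC1. A PAO gene (MELO3C035541.2) among these 3, at 1.16, was not called by DESeq2. GGPS and PSY were upregulated in both, GGPS by 2.03 (adjusted p = 3.0e-05) in “B-14” and by 1.97 (adjusted p = 1.6e-05) in “B-6”, PSY by 5.87 (adjusted p = 1.8e-06) in “B-14” and by 2.43 (adjusted p = 1.9e-05) in “B-6”.

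Ratios of counts within a library do not depend on the scaling between libraries. POR (MELO3C013592.2) had 1.71 ± 0.482, 0.845 ± 0.0866 and 1.23 ± 0.0917 counts per 100 of MELO3C016714.2 at 10, 30 and 45 DAP in “B-14”. In “B-6” it had 2.53 ± 1.27, 0.358 ± 0.0819 and 1.55 ± 0.321 (SD, n = 3 each). In both lines the ratio was lowest at 30 DAP, and at that stage the libraries of “3_14”, 0.752 to 0.924, lay above those of “3_6”, 0.271 to 0.433.

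CHLP (MELO3C014712.2) had 6.48 ± 5.20, 0.947 ± 0.341 and 10.6 ± 4.01 counts per 100 of MELO3C017176.2 at 10, 30 and 45 DAP in “B-14”, and 3.80 ± 0.972, 0.846 ± 0.246 and 3.14 ± 2.32 in “B-6”. At 45 DAP the libraries held 6.73, 14.7 and 10.4 in “4_14” and 1.69, 1.90 and 5.82 in “4_6”, without overlap. ChlH had 14.5 ± 2.89, 157 ± 4.32 and 307 ± 56.9 counts per 100 of CHLI in “B-14” and 46.4 ± 4.81, 329 ± 46.5 and 327 ± 73.6 in “B-6”. For these subunit genes the 45 DAP libraries lay above those of 30 DAP in “B-14”, whereas the 2 stages overlapped in “B-6”. ChlH had 11 ± 4.47, 42.6 ± 2.29 and 94.1 ± 11.8 counts per 100 of CRD1 in “B-14” and 19.4 ± 3.09, 70.7 ± 3.86 and 80.5 ± 14.7 in “B-6”. No test was run on these ratios.

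**Figure D5:**
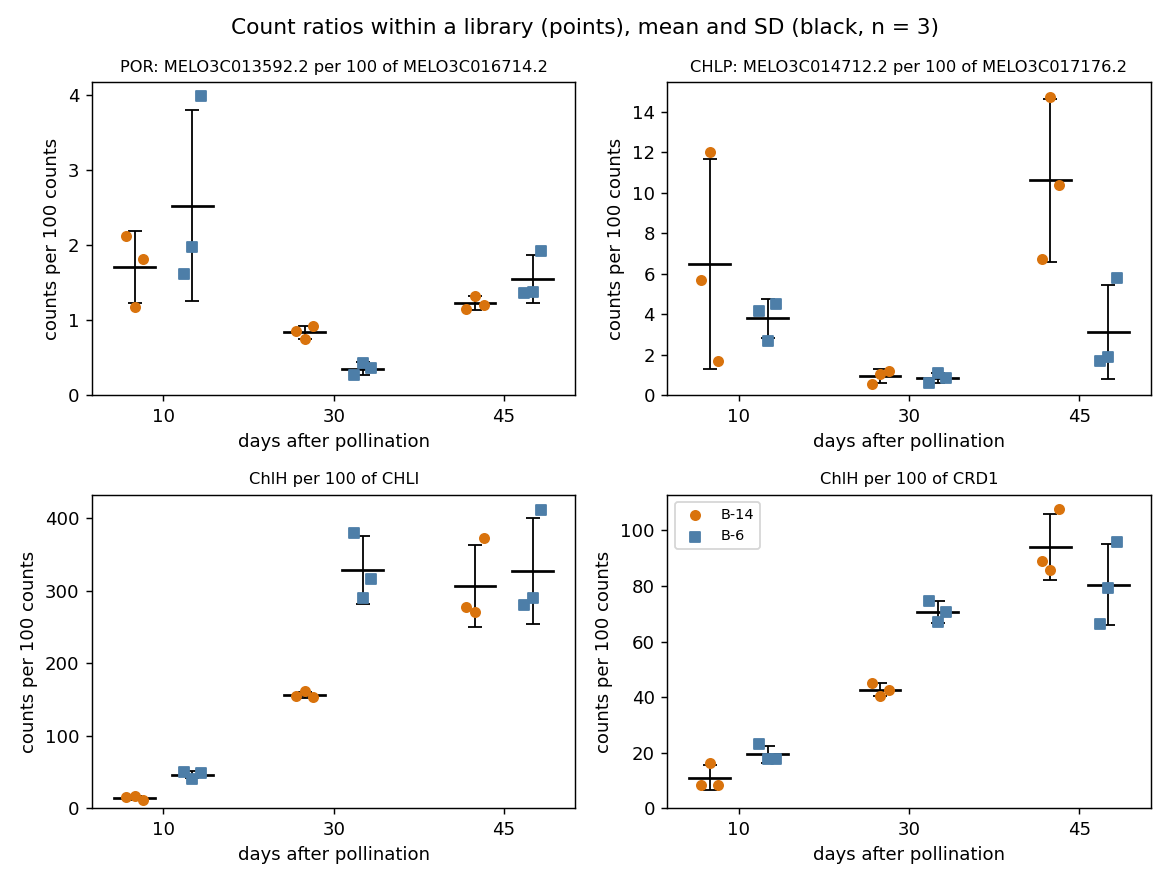
Counts of one gene per 100 counts of another in the same library (vertical axes, linear, from 0) at 10, 30 and 45 days after pollination (horizontal axis), with 1 point per library and the mean and SD of each group of 3 in black, “B-14” in orange to the left of “B-6” in blue. The CHLP ratio at 45 DAP averages 10.6 in “B-14” and 3.14 in “B-6”, and the mean of ChlH per CRD1 increases over the stages in both lines.

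Likeness of pattern was measured as the root mean square difference between genes of their log2(CPM + 1) group means, centred per gene, over the 6 groups. It describes 6 means from the same 18 libraries. The measure was not scaled for the size of a gene's changes, so genes of unlike span lie apart even where their order of groups is alike. Adding 1 CPM shrinks changes at low levels. POR (MELO3C016714.2) and CHLP (MELO3C017176.2) were the nearest pair among the 6, at 0.26, and ChlH and POR (MELO3C013592.2) the farthest, at 2.15. Among the 44 listed genes, those most like POR (MELO3C016714.2) were CHLI at 0.18 and CHLP (MELO3C017176.2) at 0.26, against a median over all other genes kept of 0.93. CHLP (MELO3C017176.2) was nearest to POR (MELO3C016714.2) at 0.26 and CHLI at 0.35, with a median of 1.04. CRD1 was nearest to GGPS at 0.34 and CAO at 0.44, with a median of 1.33. ChlH was nearest to PSY at 0.76 and NYC1 at 0.94, with a median of 2.32. Their values in “4_14” versus “4_6” had opposite signs, with −1.35 for ChlH, 0.69 for PSY and 0.86 for NYC1. POR (MELO3C013592.2) was nearest to HEMC and to PAO (MELO3C004867.2), a gene of chlorophyll breakdown, both at 0.47, with a median of 0.90. CHLP (MELO3C014712.2) had no near match in the lists, with UROS at 0.51 and NOL at 0.53 against a median of 0.87. Among the 17436 genes compared, UROS and NOL ranked 1158 and 1448 for it, whereas HEMC and PAO (MELO3C004867.2) ranked 66 and 74 for POR (MELO3C013592.2).

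Most of the 6 genes also varied together between libraries of a group. In 5 of the 6 groups, all but “3_6”, replicate 1 had the highest level of 5 of the 6 genes, whereas it had the highest level of 33.4% to 40.0% of all genes kept. Replicate 2 of “1_14” was lowest for 5 of the 6 and for 7 of 7 other branch genes, against 36.7% of all genes. CHLP (MELO3C014712.2) went the other way in “4_6”, “3_14” and “4_14”, where replicate 1 was its lowest library. Libraries of a group thus differed in most of these genes together, and the cause was not tested.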

How the data were processed

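RNA-seq counts of 18 libraries from 2 melon lines at 3 stages were analysed, with line, stage and replicate taken from the labels. The authors used Trimmomatic for trimming and HISAT2 for alignment to a melon genome, and deposited whole-number counts per gene, without normalization. Program versions, genome build, counting program, strand setting, and whether a count is a read or a pair are not given in the sources used here. Whether the counting used strand bears on any gene with an antisense neighbour.

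The tools were edgeR 4.0.16 and R 4.3.3. The 6 libraries of a pair of groups were scaled by TMM, genes were kept by filterByExpr, and the quasi-likelihood F test was applied. Interactions were fitted on 12 libraries. Between replicates, 27.7% to 64.7% of genes differed beyond sampling, and Pearson's r of log2 CPM across genes, which are not independent replicates, was 0.976 to 0.996. The floor of 3 counts equalled 0.125 to 0.159 CPM. The fits were tested on simulated counts. The members and lists were chosen with earlier results of these data known. The lists are the study's genes of porphyrin and chlorophyll metabolism with GGPS and PSY, grouped by step. All 6 genes and all other magnesium branch genes are named, and from each other list at most the 2 called genes with the largest change in a comparison, besides the 2 listed genes most like each member.

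Alternatives were DESeq2 1.42.0, RLE factors, library size alone, every gene with at least 1 count, a filter of 10 counts in each library, a common fit of all 18 libraries, an adjusted p-value, a replicate block and leaving out each library. The labels number the replicates in each group, and deviations of same-numbered libraries correlated between −0.388 and 0.435. Every such correlation was over 0.1 in 1 of 9 comparisons, “4_14” versus “3_14”, where the block changed no call of the 6 genes.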

Additional observations from a re-analysis of the deposited data

Results flagged for a closer look

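Results are given here because the change between stages differed between “B-14” and “B-6” by the interaction test of edgeR (adjusted p of at most 0.05, log2 size of at least 1, 12 libraries). Values are the log2 change in “B-14” minus that in “B-6”. From 10 to 30 DAP they were 1.79 for ChlH, 1.48 for CRD1 and 2.43 for POR (MELO3C013592.2). From 10 to 45 DAP the value was −2.05 for CHLP (MELO3C017176.2). From 30 to 45 DAP they were −1.92 for CRD1, −3.25 for POR (MELO3C013592.2), −1.70 for POR (MELO3C016714.2) and −2.54 for CHLP (MELO3C017176.2). Comparisons over 3 stages share libraries, so these 8 values are not independent of each other. With 3 libraries per group, no outlier test on single libraries was run.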

How the results depend on the processing

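Of 39 called changes of the 6 genes, 4 fell below the threshold under at least 1 alternative and 0 reversed. Of 33 uncalled changes, 12 passed under at least 1 alternative and 6 changed sign. Leaving out 1 library, the number of genes called ranged from 2 to 5 in “4_6” versus “3_6”, 2 to 4 in “4_14” versus “3_14”, 1 to 3 in “1_14” versus “1_6” and 1 to 3 (both directions) in the interaction from 10 to 45 DAP, and stayed within 1.5 times elsewhere. The log2 values that changed sign belonged to the CHLP genes. Leaving out 1 library, MELO3C014712.2 ranged from −0.83 to 0.027 in “3_14” versus “1_14”, −0.14 to 0.72 in “1_14” versus “1_6”, −0.46 to 0.17 in “4_14” versus “4_6” and −0.16 to 0.69 in the interaction from 10 to 30 DAP. MELO3C017176.2 ranged from −0.056 to 0.61 in “4_14” versus “1_14” and −0.34 to 0.33 in “1_14” versus “1_6”, and was 0.012 in “1_14” versus “1_6” with library size alone. With at least 10 counts in every library, POR (MELO3C016714.2) had 0.99 in “3_6” versus “1_6”, below the threshold. With library size alone it had 1.03 in “4_14” versus “1_14”, past it. The cause was not tested. A replicate block changed 1 call, POR (MELO3C013592.2) in “1_14” versus “1_6”, to −1.02 (SE 0.31), so that 3 of the 6 were called. In 8 of 9 comparisons, that one included, not every correlation of same-numbered libraries was over 0.1. Whether such libraries belong together is not stated in the labels and was not tested. DESeq2, RLE factors and the fit of all 18 libraries changed no call of the 6 genes. The counts of CHLP (MELO3C014712.2), 17 to 254 per library, limit its precision by counting error.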
